A study of Rattus norvegicus with 9 samples.

Results

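The genes of the lipid droplet coat were examined in the tibias of sham-operated and ovariectomized rats. They are the 5 perilipin genes Plin1, Plin2, Plin3, Plin4 and Plin5 and the genes Cidea and Cidec of the CIDE family. The genes were chosen by name, with earlier results of these data known. All 7 were found by symbol among the 22589 genes that the deposited files list. Total RNA came from the left tibia, stripped of skin, muscle, ligament and tendon, of 9 rats in 3 groups of 3. All were female Sprague-Dawley rats bought at 9 weeks of age. The Sham group had an operation in which a small piece of fat beside the ovary was taken out and the ovaries were left. In the NE/Ovx group both ovaries were removed and no exercise was given. In the RE/Ovx group both ovaries were removed and the rats later climbed a ladder for 12 weeks with a tail load that was raised stepwise to their own body weight, after a period of adaptive training that the other groups did not have. Ovariectomy withdraws ovarian estrogen and is used as a model of bone loss after menopause. Both ovariectomized groups share the operation, so NE/Ovx against Sham shows the operation without exercise, RE/Ovx against NE/Ovx shows the exercise, and RE/Ovx against Sham shows both at once.

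Fat is stored in cells as droplets of neutral lipid that are wrapped in a single layer of phospholipid and a coat of proteins. Perilipin 1, the coat protein of the fat cell, restrains lipolysis in the resting state and releases the lipase activator Abhd5 when protein kinase A phosphorylates it. Perilipin 2 coats droplets in most cell types, and perilipin 3 is a ubiquitous protein that moves from the cytosol onto new droplets. Perilipin 4 coats small nascent droplets and is abundant in fat cells and striated muscle, while perilipin 5 is typical of oxidative tissues and links droplets to mitochondria. Cidec, also called Fsp27, and Cidea sit at contacts between droplets and let lipid pass from the smaller to the larger one, Cidec in white fat cells and Cidea mainly in brown ones. Marrow holds fat cells among its blood-forming cells, and their number rises after ovariectomy. In RNA of a whole tibia, more cells of a type and more RNA per cell cannot be told apart.

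The stretch of 250 bases before the start site is shown for Plin1, Cidec and Plin4, which passed the test in at least 1 comparison below. It is also shown for Plin2, which did not pass in any. Cidea passed as well, and its stretch was searched but is not shown. The sequences are those of RefSeq on the build GRCr8, which held an entry for all 7 genes, while the counts were made on Rnor_6.0. They are written 5′ to 3′ on the strand of the gene, and capitals mark every match, on either strand, to 1 of 7 short motifs. The first stretch lies at chr1:143086149-143086398, the second at chr4:148137116-148137365, the third at chr9:1025250-1025499 and the fourth at chr5:106229019-106229268, all on the minus strand. For Plin4, with 5 start sites, and Plin2, with 2, the one farthest upstream is shown.
Plin1: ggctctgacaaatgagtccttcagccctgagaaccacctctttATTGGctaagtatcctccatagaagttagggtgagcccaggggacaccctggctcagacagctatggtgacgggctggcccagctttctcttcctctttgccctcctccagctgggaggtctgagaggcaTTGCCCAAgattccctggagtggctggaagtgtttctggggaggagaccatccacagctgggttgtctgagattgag
Cidec: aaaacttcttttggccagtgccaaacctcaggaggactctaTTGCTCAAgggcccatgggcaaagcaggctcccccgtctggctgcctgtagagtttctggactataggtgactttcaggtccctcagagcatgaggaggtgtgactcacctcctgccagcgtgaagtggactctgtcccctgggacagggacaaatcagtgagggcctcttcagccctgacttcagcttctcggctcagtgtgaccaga
Plin4: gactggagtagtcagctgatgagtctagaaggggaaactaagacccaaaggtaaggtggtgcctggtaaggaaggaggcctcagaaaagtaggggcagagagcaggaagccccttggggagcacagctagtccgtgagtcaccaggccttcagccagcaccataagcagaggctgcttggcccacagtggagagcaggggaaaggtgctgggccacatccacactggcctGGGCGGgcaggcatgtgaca
Plin2: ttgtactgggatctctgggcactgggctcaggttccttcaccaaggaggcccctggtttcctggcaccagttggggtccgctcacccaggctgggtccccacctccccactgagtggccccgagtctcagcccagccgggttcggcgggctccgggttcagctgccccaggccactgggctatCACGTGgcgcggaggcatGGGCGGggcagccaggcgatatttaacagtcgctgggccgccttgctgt
A C/EBP motif, TTNNGCAA, was found 77 to 70 bases before the start site of Plin1 and 209 to 202 bases before that of Cidec. Both were on the opposite strand. The stretches of the other coat genes, Plin4 and Cidea among them, held no match to this motif. Among 33469 such stretches of all genes, 9.22% held it. The Plin2 stretch held an E-box, CACGTG, which 5.59% of all stretches held. The half-site of nuclear receptors, AGGTCA, was in Plin5 only and in 14.1% of all stretches. The direct repeat of this half-site with 1 base between the copies, which PPAR/RXR binds, was in none of the 7 and in 0.0508% of all stretches. GC boxes, GGGCGG, were in Plin2, Plin3, Plin4, Plin5 and Cidea (30.5% of all stretches), CCAAT boxes in Plin1, Plin3 and Plin5 (34%), and TATAAA in none (12.9%). These are matches of letters and say nothing about binding.

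Counts summed to between 12297992 and 16671533 per library, and 14520 genes, all 7 coat genes among them, had enough counts for edgeR's quasi-likelihood test in 1 fit of all 9 libraries. Every adjusted p below is from that test with Benjamini-Hochberg adjustment over all 14520 genes, unless a permutation test is named, and the threshold was 0.05. The level of a gene is its CPM, in which counts are divided by a library size adjusted with TMM factors. Different genes are compared on the FPKM scale, which also divides by length. The tissue label was checked on defining markers. All 12 bone cell markers were detected in every group, and the 20 skeletal muscle markers summed to between 6196 and 20426 CPM although muscle had been removed. In the RE/Ovx group this sum was 7725 to 11689 CPM, in the NE/Ovx group 16466 to 20426 CPM, and in the Sham group 6196, 14234 and 18595 CPM, the lowest of them in Sham rat 8. Whether the labelled rats came from separate cages or litters is not stated, so the p-values measure the spread between these 9 rats.

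Plin1, Plin4, Cidec and Cidea were higher in every NE/Ovx tibia than in any Sham tibia, and Plin2, Plin3 and Plin5 overlapped. Plin1 rose 7.86-fold (95% interval 5.37 to 11.5). Plin4, Cidec and Cidea had mean fold changes of 2.61, 4.22 and 4.56 and did not pass the adjusted threshold. Thus 1 of the 7 genes passed, against 1.03% of all tested genes that were higher at this threshold. The study worked with an unadjusted p below 0.05 and a fold change outside 0.83 to 1.2. Here and below that rule was applied to the p-values of the edgeR fit, whereas the study took its own from DESeq2. Counts and shares by this rule are thus not those that the study reported. By that rule 4 of 7 were higher and 0 lower, against 11.3% and 6.52% of all genes. The same 4 had groups that did not overlap, against 13.9% of genes for higher and 11.4% for lower. The median log2 fold change of the 7 genes was 1.38 and that of all genes 0.003.
Plin1 was at 9.97, 6.45 and 6.83 CPM in Sham rats 7, 8 and 12, and at 46.9, 73.2 and 63.8 CPM in NE/Ovx rats 6, 8 and 9. The lowest NE/Ovx tibia was thus well above the highest Sham tibia. Its log2 fold change was 2.97 (SE 0.25, adjusted p = 0.00387), the smallest p of all 14520 genes. Without any 1 of the 6 rats the call held, with adjusted p between 0.0033 and 0.0219.
Plin4 was at 24.0, 8.46 and 17.4 CPM in the Sham rats and at 35.3, 41.9 and 53.4 CPM in the NE/Ovx rats. These groups did not overlap, with Sham rat 8 the lowest, and the log2 fold change of 1.38 (SE 0.32) had an adjusted p of 0.069. DESeq2 on all 9 libraries gave an adjusted p of 0.000958 for it. Cidec was at 4.88, 0.806 and 2.67 CPM in the Sham rats and at 8.37, 11.5 and 16.0 CPM in the NE/Ovx rats. Sham rat 8 was again the lowest and Sham rat 7 the highest of its group. The log2 fold change of Cidec was 2.08 (SE 0.45, adjusted p = 0.0572), and it moved between 1.64 without Sham rat 8 and 2.78 without Sham rat 7. Cidec passed in 6 of the other settings of the analysis, such as library totals in place of TMM (adjusted p = 0.0462) and DESeq2 on all libraries (0.000193), and without Sham rat 8.
Cidea was rare. It had 12, 1 and 1 counts in the Sham rats and 28, 18 and 26 counts in the NE/Ovx rats. A count of 1 has an exact Poisson interval of 0.0253 to 5.57, which covers counting error only. The log2 fold change of 2.19 (SE 0.65) had an adjusted p of 0.111 and rests on low counts in the Sham group. It was 1.74 without Sham rat 8 and 4.15 without Sham rat 7, where Cidea passed (adjusted p = 0.0341), and Cidea also passed in DESeq2 on all libraries (0.0196).
Plin2 was at 54.6, 44.4 and 43.7 CPM in the Sham rats and at 63.2, 48.7 and 51.0 CPM in the NE/Ovx rats, so the groups overlapped. Its fold change was 1.14 with a 95% interval of 0.911 to 1.43 (adjusted p = 0.495). Plin3 was the steadiest gene of the 7, with 22.1, 24.8 and 23.7 CPM in the Sham and 22.4, 23.2 and 21.3 CPM in the NE/Ovx rats. The interval of its fold change was 0.807 to 1.11 (adjusted p = 0.717). Plin5 had 13, 4 and 10 counts in the Sham and 6, 9 and 26 counts in the NE/Ovx rats, with an interval of the fold change from 0.543 to 3.1. A change of Plin5 in either direction within that wide interval remains possible. Low counts and the spread between rats both enter its width.

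**Figure D1:**
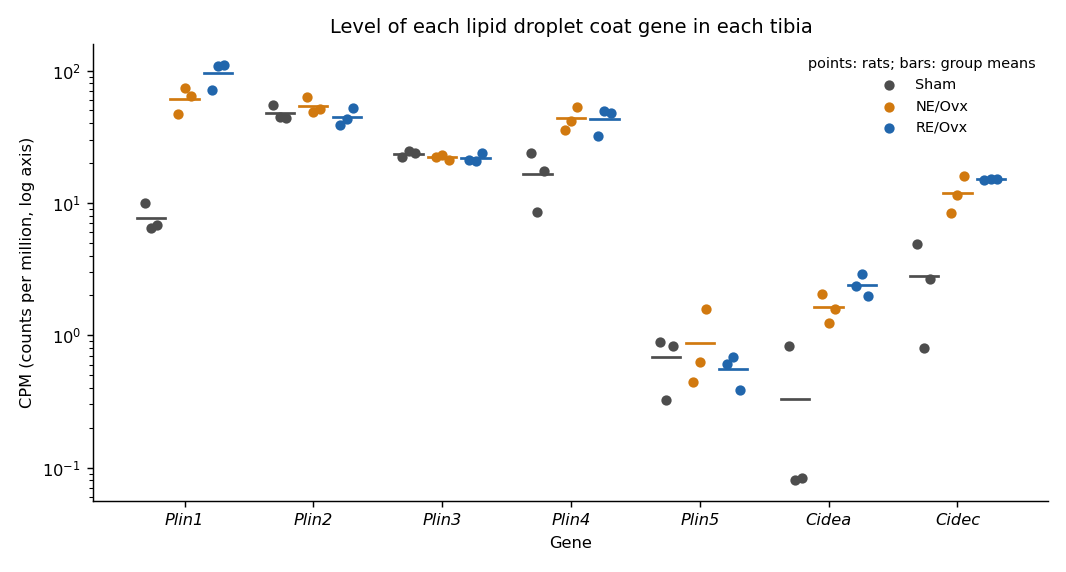
CPM of the 7 coat genes (log axis) in the Sham, NE/Ovx and RE/Ovx tibias; each point is 1 tibia and each short bar a group mean of 3. Plin1 is at 6.45 to 9.97 CPM in Sham and 46.9 to 111 CPM in the ovariectomized rats, while Plin3 stays between 20.6 and 24.8 CPM in all 9.

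No coat gene differed between exercised and unexercised ovariectomized rats at the threshold. None of the 7 passed in edgeR for RE/Ovx against NE/Ovx, where 0% of all genes were called, and DESeq2 and limma also called 0 of the 7. Plin1 alone had an unadjusted p under 0.05, against 5.28% of all genes. It also met the rule of the study, which 1.54% of genes met upwards, 3.15% downwards and 4.68% in all. No coat gene had groups that did not overlap, against 4.75% of genes for higher and 6.84% for lower. The median log2 fold change of the 7 was -0.02.
Plin1 was at 70.7, 108 and 111 CPM in RE/Ovx rats 3, 5 and 8. RE/Ovx rat 3 lay within the NE/Ovx range, and the other two lay above it. The log2 fold change was 0.65 (SE 0.22, unadjusted p = 0.0127, adjusted p = 0.921), and it was 0.50 without NE/Ovx rat 6 and 0.84 without RE/Ovx rat 3. Plin2 was at 38.7, 43.0 and 51.8 CPM in the RE/Ovx rats, a log2 fold change of -0.29 with a 95% interval of -0.61 to 0.04. Plin3 was at 21.2, 20.6 and 23.9 CPM, with an interval of -0.26 to 0.21. For Plin4, at 32.0, 49.3 and 47.7 CPM, the log2 fold change was -0.02 with an interval of -0.71 to 0.67.
The RE/Ovx counts of Plin5 were 9, 9 and 6, and its log2 fold change of -0.68 had an interval of -1.95 to 0.59. Cidea had 35, 38 and 31 counts in the RE/Ovx rats, each above the 28 of the highest NE/Ovx library. On the CPM scale the groups overlapped narrowly (1.99 to 2.90 against 1.25 to 2.06 CPM), and the log2 fold change was 0.57 (interval -0.61 to 1.74). Cidec was at 14.9, 15.3 and 15.0 CPM, all within the NE/Ovx range and close together. Its log2 fold change was 0.33 (interval -0.55 to 1.22).
All 19 tested skeletal muscle markers were lower in the RE/Ovx than in the NE/Ovx group, with a median log2 fold change of -0.98. With the per-rat level of these markers as a covariate, the log2 fold change of Plin1 was 0.81, that of Cidea 1.70, that of Cidec 1.25, that of Plin4 0.65 and that of Plin5 0.13. None of the 7 passed in that fit (adjusted p of at least 0.974). The marker level did not overlap between these groups, at 0.39 to 0.60 in NE/Ovx and -0.85 to -0.12 in RE/Ovx on the log2 scale. The fit thus hardly separates the muscle level from exercise, and no conclusion is drawn from its fold changes. The part of muscle RNA in the values of Plin4 and Plin5, which muscle also expresses, was not tested in any other way.

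Against Sham, the exercised rats showed the same 4 genes at higher levels, and all 4 passed. This comparison shares its Sham rats with NE/Ovx against Sham. Plin1 rose 12.4-fold (95% interval 8.41 to 18.2), Cidea 6.76-fold (2.54 to 18.0), Cidec 5.32-fold (2.67 to 10.6) and Plin4 2.57-fold (1.57 to 4.23). The 4 called genes of 7 stand against 5% of all tested genes that were higher at this threshold. The groups of these 4 did not overlap, against 14.9% of all genes, and 4 of 7 were higher by the rule of the study, against 14% of genes, with 0 lower against 9.17%.
The log2 fold change of Plin1 was 3.63 (SE 0.25, adjusted p = 0.000335), in the second place of all genes by p. It stayed past the threshold without any 1 rat, with adjusted p of at most 0.00372. For Cidec it was 2.41 (SE 0.45, adjusted p = 0.0166), a call lost without RE/Ovx rat 5 or RE/Ovx rat 8, with adjusted p of up to 0.0602. For Cidea it was 2.76 (SE 0.63, adjusted p = 0.0306), lost without Sham rat 8, Sham rat 12, RE/Ovx rat 5 or RE/Ovx rat 8 (up to 0.112). For Plin4 it was 1.36 (SE 0.32, adjusted p = 0.0333), lost without Sham rat 12, NE/Ovx rat 8, RE/Ovx rat 5 or RE/Ovx rat 8 (up to 0.119). Without Sham rat 7, which held most of the Sham counts of Cidea, the log2 fold change of Cidea was 4.73. Of these 4 calls, only that of Plin1 thus held whichever rat was left out. In edgeR on the RE/Ovx and Sham libraries alone, Plin1 and Cidec passed, and Plin4 (adjusted p = 0.0557) and Cidea (0.058) did not.
Plin2, Plin3 and Plin5 were not called. Their fold changes were 0.935 (interval 0.747 to 1.17), 0.931 (0.793 to 1.09) and 0.81 (0.323 to 2.04).

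**Figure D2:**
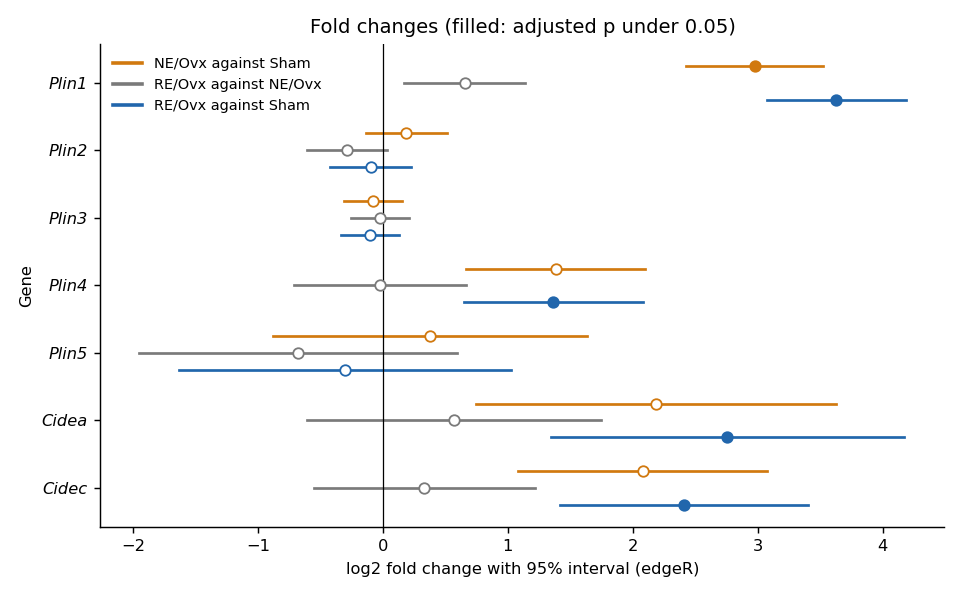
Log2 fold changes of the 7 coat genes with 95% intervals from edgeR in the 3 comparisons; filled points have an adjusted p under 0.05. Plin1 is filled at 2.97 and 3.63, Plin4, Cidea and Cidec are filled for RE/Ovx against Sham, and every interval for Plin2 and Plin3 includes 0.

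The make-up of the coat transcripts was then compared within each tibia. Levels were first ordered per length. In Sham tibias Plin2 was the most abundant (19.0 ± 2.18 FPKM, SD, n = 3), followed by Plin3 (11.6 ± 0.863), Plin1 (3.49 ± 0.817), Plin4 (2.89 ± 1.32), Cidec (1.61 ± 1.16), and Cidea and Plin5 (0.325 ± 0.42 and 0.321 ± 0.144). Neighbours from Plin1 downwards overlapped over rats, and Plin2 and Plin3 stood apart from each other and from the rest. In NE/Ovx tibias Plin1 led with 28.4 ± 6.33 FPKM, ahead of Plin2 with 22.3 ± 3.18, and these overlapped. They were followed by Plin3 (11.2 ± 0.626), Plin4 (7.79 ± 1.57), Cidec (7.15 ± 2.23), Cidea (1.66 ± 0.412) and Plin5 (0.424 ± 0.289). In RE/Ovx tibias Plin1, at 45.6 ± 11.1 FPKM, stood clear of Plin2, at 18.6 ± 3.16, in every rat. Plin3 (11.2 ± 1.13) was above Cidec (9.18 ± 0.187) and Plin4 (7.84 ± 1.81), and Cidea (2.51 ± 0.444) was above Plin5 (0.274 ± 0.0727).
The 7 genes together reached 44.7, 35.6 and 37.2 FPKM in the Sham rats, 72.6, 82.6 and 81.6 FPKM in the NE/Ovx rats and 77.0, 100.1 and 108 FPKM in the RE/Ovx rats. The sum was higher by 39.8 FPKM in NE/Ovx than in Sham, without overlap (two-sided exact permutation test, p = 0.1, adjusted p = 0.15 over 3 comparisons). With 3 rats against 3 no such test can go below 0.1, which holds for all permutation tests here.
Plin1 made up 9.91, 8.32 and 8.29% of this sum in the Sham rats, 30.0, 41.6 and 35.8% in the NE/Ovx rats and 42.7, 50.5 and 49.2% in the RE/Ovx rats. No 2 of these groups overlapped. Its share was higher by 26.9 percentage points in NE/Ovx than in Sham and by 11.7 points in RE/Ovx than in NE/Ovx (exact permutation p = 0.1 each, adjusted p = 0.175 over 21 tests). Plin2 had the largest share in every Sham tibia and the second largest mean share in both ovariectomized groups. It held 48.0, 50.7 and 46.9% in the Sham rats, 35.7, 24.5 and 25.3% in the NE/Ovx rats and 20.7, 17.7 and 20.4% in the RE/Ovx rats, again with no overlap between any 2 groups (exact permutation p = 0.1, adjusted p = 0.175). Plin3 had a share of 23.9 to 34.8% in Sham, 13.0 to 15.5% in NE/Ovx and 10.4 to 13.9% in RE/Ovx. Cidec took 1.34 to 6.27%, 6.91 to 11.6% and 8.63 to 11.7% in the same order. Shares of Plin4 overlapped in all 3 comparisons, at 7.21 ± 2.64% (SD, n = 3), 9.83 ± 1.53% and 8.18 ± 0.705%. Shares are parts of 1 whole, so a larger share of Plin1 lowers those of the other genes. Plin2 and Plin3 were not called on their own levels, and their lower shares are not separate results.

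**Figure D3:**
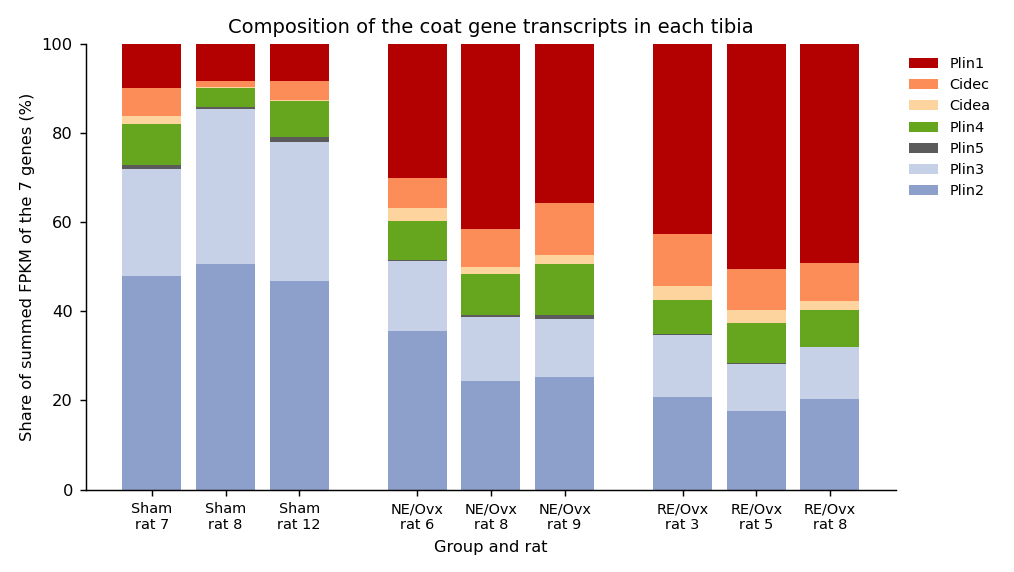
Share of each coat gene in the summed FPKM of the 7 genes, in percent, stacked for each of the 9 tibias. The top band, Plin1, takes 8.29 to 9.91% in Sham, 30.0 to 41.6% in NE/Ovx and 42.7 to 50.5% in RE/Ovx rats, and the bottom band, Plin2, is at 46.9 to 50.7% in Sham and 17.7 to 20.7% in RE/Ovx rats.

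The ratio of 2 genes within a library does not depend on how libraries are scaled. Ratios to Plin2 are made of the same levels as above and are not separate results. On the log2 FPKM scale, Plin1 to Plin2 was -2.28, -2.61 and -2.50 in the Sham rats, -0.25, 0.77 and 0.50 in the NE/Ovx rats and 1.05, 1.51 and 1.27 in the RE/Ovx rats. Plin1 was thus below Plin2 in all 3 Sham tibias and in NE/Ovx rat 6, and above it in the other 5. Mean differences from Sham were 2.80 in NE/Ovx and 3.74 in RE/Ovx, and that between the ovariectomized groups was 0.94, each without overlap (exact permutation p = 0.1, adjusted p = 0.21 over 21 tests). Without NE/Ovx rat 6 the RE/Ovx against NE/Ovx difference was 0.64. Cidea to Plin2 also did not overlap in any comparison, with a mean difference of 0.87 for RE/Ovx against NE/Ovx (exact permutation p = 0.1, adjusted p = 0.21). The ratio of Cidec to Plin1 overlapped in every comparison, at -1.43 ± 1.06 (SD, n = 3) in Sham, -2.01 ± 0.349 in NE/Ovx and -2.28 ± 0.353 in RE/Ovx, and so did that of Plin3 to Plin2.

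Whether a coat gene moved more or less than other fat cell genes was measured against 17 adipocyte markers, such as Adipoq, Fabp4 and Lpl, none of them a coat gene. Their median log2 fold change was 1.67 for NE/Ovx against Sham, with 9 of 17 called higher and 0 lower. For RE/Ovx against Sham it was 1.98, with 14 higher. For RE/Ovx against NE/Ovx it was 0.45, with 0 called and 4 higher at an unadjusted p under 0.05. Of all tested genes, 1.03% were called higher in the first comparison and 5% in the second. In each comparison with Sham 2 of the 17 had negative fold changes. For NE/Ovx against Sham 1 of the 17 was lower at an unadjusted p under 0.05. Markers such as Pck1 (2.68), Thrsp (2.53) and Adipoq (2.42) were above the list median in that comparison. Averaged over the list, Sham rat 7 had the highest level of its group (-0.56 on the log2 scale around the mean of all rats, against -1.71 in rat 8 and -1.44 in rat 12). Sham rat 7 also had the highest Sham values of Plin1, Plin2, Plin4, Plin5, Cidea and Cidec, and the lowest of Plin3.
Relative to the mean of these markers in the same tibia, log2 CPM of Plin1 was at -0.80, -0.28 and -0.46 in the Sham rats, 0.62, 1.14 and 0.72 in the NE/Ovx rats and 0.61, 1.26 and 1.16 in the RE/Ovx rats. It was higher by 1.34 in NE/Ovx than in Sham, without overlap (exact permutation p = 0.1, adjusted p = 0.162 over 21 tests), and by 0.18 in RE/Ovx than in NE/Ovx, with overlap (exact permutation p = 0.5). In this measure every ovariectomized rat had Plin1 above the mean of the fat cell markers and every Sham rat below it, and the difference with exercise was within the spread of the rats.
Cidec and Cidea had differences relative to the markers of 0.68 and 0.63 for NE/Ovx against Sham and overlapping groups (exact permutation p = 0.3 each). With a prior count of 0.5 in place of 2, the difference of Cidea was 1.16, and for RE/Ovx against Sham it went from 0.71 to 1.27. Cidec was higher by 0.59 in RE/Ovx than in Sham, without overlap (exact permutation p = 0.1, adjusted p = 0.162), and by 0.37 when the median of the markers was used (exact permutation p = 0.7). Plin4 differed by -0.14 for NE/Ovx against Sham (exact permutation p = 0.7). It was lower by 0.49 in RE/Ovx than in NE/Ovx without overlap (exact permutation p = 0.1, adjusted p = 0.162). In that comparison the log2 fold change of Plin4 on its own level was -0.02 and the median of the markers 0.45. Plin2, Plin3 and Plin5 were lower relative to the markers in all 3 comparisons without overlap. Their differences for NE/Ovx against Sham were -1.43, -1.70 and -1.39 (exact permutation p = 0.1, adjusted p = 0.162). On their own levels Plin2, Plin3 and Plin5 were not called in any comparison, while the mean of the markers was higher in the ovariectomized rats.

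**Figure D4:**
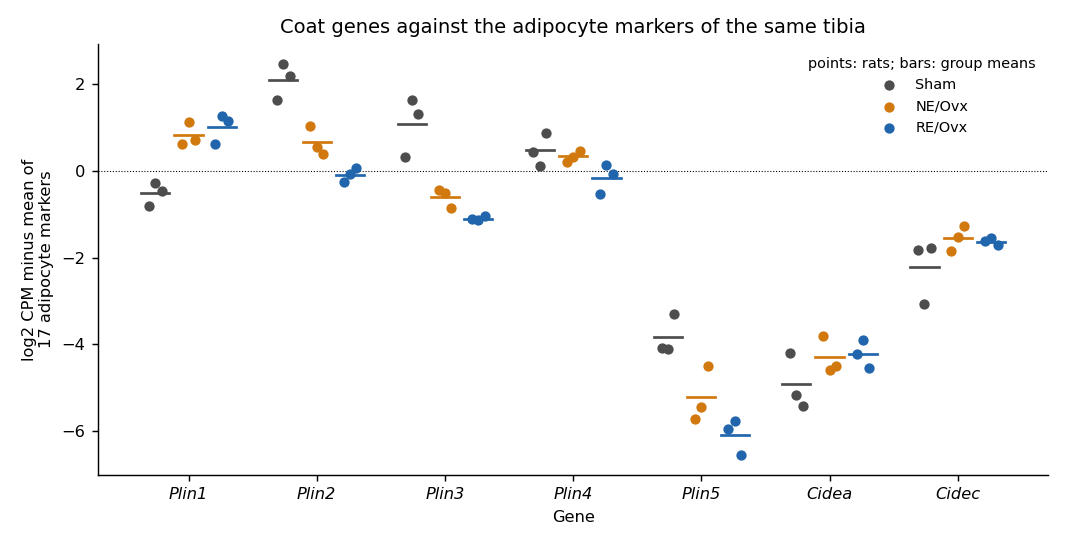
Log2 CPM of each coat gene minus the mean log2 CPM of 17 adipocyte markers in the same tibia; each point is 1 tibia, short bars are means, and the dotted line marks equality. Plin1 lies below the line in all Sham rats and above it in all ovariectomized rats, while the mean of Plin2 is 2.10 in Sham and -0.09 in RE/Ovx.

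Of 27 further droplet proteins 25 were tested, and 2 were higher and 1 lower for NE/Ovx against Sham (1.23% of all genes passed in either direction). Their median log2 fold change was -0.005. Aifm2, also called Fsp1, an oxidoreductase found on droplets, rose by 1.73 (SE 0.18, adjusted p = 0.00751), and Lipe, the hormone-sensitive lipase that acts on the Plin1-coated droplet, by 1.32 (SE 0.16, adjusted p = 0.012) on the log2 scale. Lipe was at 24.1, 19.8 and 23.3 CPM in the Sham and 45.0, 62.1 and 60.5 CPM in the NE/Ovx rats, and its call was lost without NE/Ovx rat 8 or NE/Ovx rat 9 (adjusted p up to 0.0585). Rab18, a small GTPase of the droplet surface, fell by 0.50 (SE 0.08, adjusted p = 0.0265), a call that was lost without any 1 of the 6 rats other than Sham rat 8 (adjusted p up to 0.0954).
With exercise and ovariectomy together, RE/Ovx against Sham, 4 were higher and 1 lower (8.06% of all genes passed). Those higher were Aifm2, Lipe, Tmem159 (log2 fold change 0.51, adjusted p = 0.0409), which takes part in droplet formation, and Pnpla3, a lipid hydrolase of droplets, with 10, 2 and 3 counts in the Sham and 144, 37 and 41 in the RE/Ovx rats. Rab18 was the one lower. Genes of droplet assembly such as Bscl2, the seipin gene, and Dgat1, which makes triglyceride, had log2 fold changes of 0.15 (interval -0.13 to 0.43) and -0.05 (interval -0.29 to 0.19) for NE/Ovx against Sham. The lipase activator Abhd5, held by Plin1, had one of -0.04 (interval -0.24 to 0.16). Pnpla2, the main triglyceride lipase, had only 7 to 67 counts per library. The third CIDE gene, Cideb, had 0 to 6 counts per library and was not tested. Between the ovariectomized groups 0 of the 25 were called in edgeR, with 1 higher at an unadjusted p under 0.05. This was Pnpla2, with a log2 fold change of 1.78 (interval 0.14 to 3.42, adjusted p = 0.924) that rests on low counts. Of all tested genes 5.28% had an unadjusted p under 0.05 in that comparison.

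**Figure D5:**
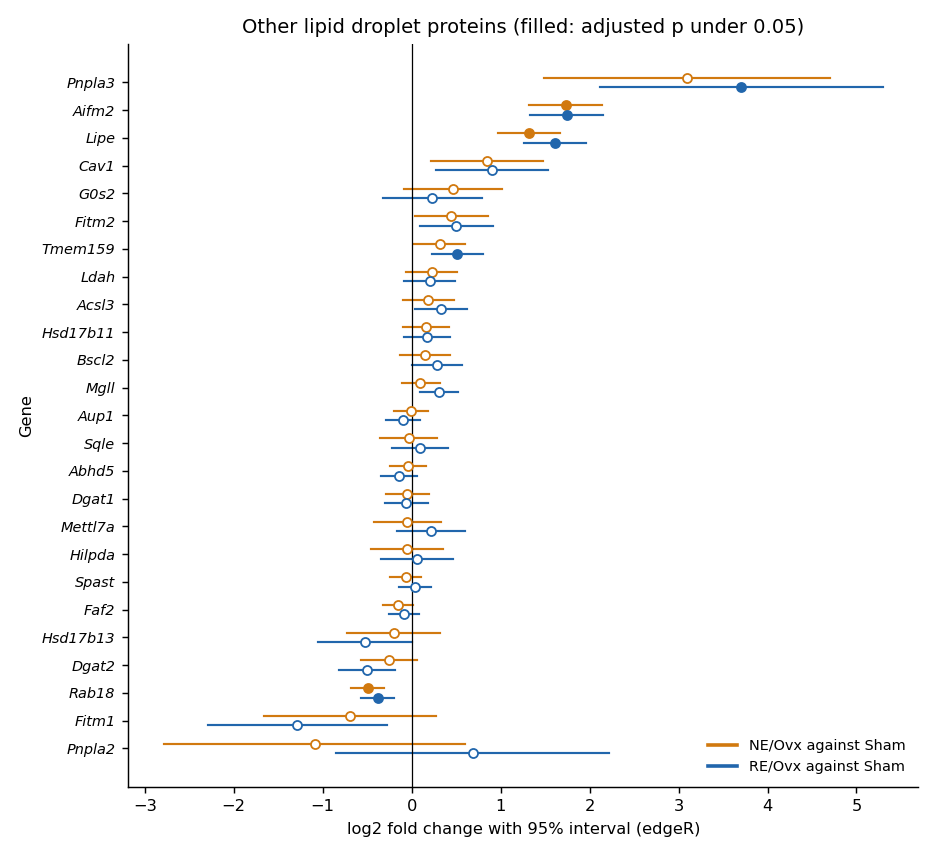
Log2 fold changes with 95% intervals of the 25 tested droplet proteins that are not perilipins, Cidea or Cidec, for NE/Ovx against Sham and RE/Ovx against Sham, ordered by the first; filled points have an adjusted p under 0.05. Aifm2, Lipe and Rab18 are filled in both, and Pnpla3 and Tmem159 in the second.

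Regulators of the perilipin genes and hormone signals onto the droplet were described as lists. Of 12 regulators, 0 passed in edgeR for NE/Ovx against Sham. An unadjusted p under 0.05 was reached by 4, all higher, against 20.5% of all tested genes in either direction. The median log2 fold change of the 12 was 0.22. Pparg, the master factor of fat cell formation, was at 11.6, 9.51 and 8.92 CPM in the Sham, 15.0, 14.9 and 18.4 CPM in the NE/Ovx and 21.6, 21.9 and 21.5 CPM in the RE/Ovx rats. Its log2 fold change against Sham was 0.68 in NE/Ovx (adjusted p = 0.051) and 1.11 in RE/Ovx (adjusted p = 0.00622), and it was 0.43 between the ovariectomized groups (adjusted p = 0.921). Srebf1, a factor of lipid synthesis, had 0.58 (adjusted p = 0.0596), 0.85 (0.0108) and 0.28 (0.924) in the same order. Cebpb fell by 0.59 for RE/Ovx against Sham (adjusted p = 0.034) and was the third regulator called there. In that comparison 5% of all tested genes were called higher and 3.06% lower.
Of 12 genes of hormone signals, Adrb3, the beta-3 adrenergic receptor of fat cells, was the only one that passed for NE/Ovx against Sham. It had 12, 22 and 19 counts in the Sham and 56, 97 and 72 counts in the NE/Ovx rats, a log2 fold change of 1.87 (SE 0.36, adjusted p = 0.0412), and the call was lost without any 1 of the 6 rats (adjusted p 0.0513 to 0.139). In RE/Ovx against Sham Adrb3, the insulin receptor substrate Irs1 and the phosphodiesterase Pde3b were higher, by 2.31, 0.89 and 0.72. Of all tested genes, 1.03% were called higher for NE/Ovx against Sham and 5% for RE/Ovx against Sham. None of the 12 was called for RE/Ovx against NE/Ovx in edgeR, and 0 had an unadjusted p under 0.05.

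The genes whose pattern over the 9 rats was most like that of a coat gene were found by the root-mean-square difference of centred log2 CPM. For Plin1 they were Bin2a (0.30), Ankef1 (0.37) and Pck1 (0.37), the last a gluconeogenic enzyme that fat cells use to make glycerol. Bin2a and Ankef1 had log2 fold changes of 3.78 and 3.15 for NE/Ovx against Sham (adjusted p = 0.00554 and 0.00578). Bin2a had only 5, 5 and 2 counts in the Sham rats. For Cidec they were Adipoq, the adiponectin gene (0.38), Tusc5, a regulator of the glucose transporter in fat cells (0.39), and Calml3 (0.40). For Cidea they were Ces2h (0.36), the angiotensinogen gene Agt (0.40) and Adipoq (0.41). Ces2h had only 5, 0 and 0 counts in the Sham rats. For Plin4 they were Mfap5, a microfibril protein (0.19), Gpd1, which makes glycerol phosphate (0.22), and Smoc2, a matrix protein (0.22). Among the 4 called coat genes, Cidea and Cidec were the closest pair (0.53), and Plin1 was nearer to Cidec (0.64) and Cidea (0.67) than to Plin4 (0.94), Plin2 (1.60), Plin3 (1.64) or Plin5 (1.67).

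Genes beside the coat genes were compared where the files list them. Pex11a, a peroxisome gene next to Plin1, was at 3.16, 5.48 and 3.75 CPM in the Sham and 11.6, 12.3 and 11.6 CPM in the NE/Ovx rats, without overlap. Its log2 fold change was 1.52 for NE/Ovx against Sham (SE 0.20, adjusted p = 0.0175) and 1.77 for RE/Ovx against Sham (adjusted p = 0.00418), and the first was lost without Sham rat 12, NE/Ovx rat 8 or NE/Ovx rat 9 (adjusted p up to 0.0856). Plin4 and Plin5 lie next to each other, and for RE/Ovx against Sham Plin4 passed and Plin5 did not, a contrast between genes that was not tested. On their other sides, the log2 fold change for NE/Ovx against Sham was 0.15 in Hdgfrp2 beside Plin4 (adjusted p = 0.304) and -0.34 in Lrg1 beside Plin5 (adjusted p = 0.211). Lrg1 fell by 0.75 for RE/Ovx against Sham (adjusted p = 0.0175). Ticam1 beside Plin3 and Tubb6 beside Cidea had 0.20 or less in size for NE/Ovx against Sham (adjusted p = 0.925 and 0.62), and Arrdc5 beside Plin3 had too few counts to be tested.

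Markers of other cell types moved with these comparisons as follows, and their part in the coat gene values was not tested. Brown fat was checked because Cidea is known from it. Ucp1 and Elovl3 had 0 counts in all 9 libraries, which allows up to 3 counts or 0.18 to 0.244 CPM per library, and of the 6 tested brown fat markers 0 passed for NE/Ovx against Sham (1 at an unadjusted p under 0.05) with a median log2 fold change of 0.43. For RE/Ovx against Sham 3 of the 6 had positive and 3 negative log2 fold changes, with a median of 0.05. Kcnk3 and Prdm16 were higher (2.51 and 1.68), and Dio2 had 0.32 (adjusted p = 0.529). Kcnk3 had 6, 3 and 7 counts in the Sham rats. Both calls were lost without RE/Ovx rat 5 or RE/Ovx rat 8, and that of Prdm16 also without Sham rat 8. Cox8b had -1.14 (adjusted p = 0.154), Pdk4 -0.75 (0.439) and Cpt1b -0.22 (0.579). Cox8b was at 22.4, 6.05 and 23.0 CPM in Sham rats 7, 8 and 12, lowest in the Sham rat with the lowest muscle sum. The part of muscle RNA in these 3 genes was not tested. Of 12 tested macrophage markers 0 passed in each comparison, with 1, 0 and 0 at an unadjusted p under 0.05. In every group 12 of the 13 listed macrophage markers were detected, and Marco had 0 counts. Bone cell markers had 3 of 12 higher for NE/Ovx against Sham, among them Col1a1 (log2 fold change 1.70). Cartilage markers had 2 of 8 higher, among them Col11a2 (1.57). The call of Col1a1 was lost without Sham rat 7, Sham rat 12, NE/Ovx rat 8 or NE/Ovx rat 9. That of Col11a2 held whichever rat of the comparison was left out. In RE/Ovx against Sham 3 of 12 bone cell and 4 of 8 cartilage markers were higher. Of all tested genes, 1.03% were called higher for NE/Ovx against Sham and 5% for RE/Ovx against Sham. Muscle markers had 0 of 19 called in each comparison. At an unadjusted p under 0.05, 15 were lower between the ovariectomized groups, 8 when RE/Ovx was set against Sham and 0 when NE/Ovx was. Of all tested genes, 5.28%, 25.6% and 20.5% reached that level in either direction, in the same order.
Blood cell markers passed for RE/Ovx against Sham in part. In that comparison 5% of all tested genes were called higher and 3.06% lower. Of 10 neutrophil markers 5 were lower, among them Camp (-0.97), and of 7 megakaryocyte markers 2 were lower, among them Treml1 (-0.48). Of 8 B cell markers 2 were higher, Blnk (1.46) and Cd22 (0.94). The call of Camp held whichever rat of the comparison was left out. That of Treml1 was lost without Sham rat 7, Sham rat 8, RE/Ovx rat 5 or RE/Ovx rat 8. Those of Blnk and Cd22 were lost without Sham rat 7, RE/Ovx rat 5 or RE/Ovx rat 8. None of 10 erythroid markers passed in edgeR, with 5 lower at an unadjusted p under 0.05 for NE/Ovx against Sham and 1 for RE/Ovx against Sham, and 2 of 8 endothelial markers were higher for RE/Ovx against Sham. For NE/Ovx against Sham 0 neutrophil, megakaryocyte, B cell and endothelial markers passed, with 5, 6, 6 and 3 at an unadjusted p under 0.05. The share of all tested genes at that level was 20.5% for NE/Ovx against Sham and 25.6% for RE/Ovx against Sham. In RE/Ovx against NE/Ovx none of the lists had a called gene.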

How the data were processed

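Left tibias of 9 rats were sequenced as ribosome-depleted, stranded total RNA libraries. The authors deposited whole-number counts per gene and FPKM values for each rat. According to the submitters' processing notes, reads were handled with Trimmomatic, Bowtie2, HISAT2 and StringTie on the build Rnor_6.0 (no versions), with DESeq also named. No source used here states whether reads were counted by strand. The FPKM differ from the counts by 1 factor per library and gene length (largest relative spread 2.5e-07). Within each group, every pair of libraries differed by more than sampling noise.

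Counts were tested in R 4.3.3 with edgeR 4.0.16 (filterByExpr, TMM factors 0.962 to 1.04, quasi-likelihood test, group as the only term). Standard errors and 95% intervals come from the same fit. For per-rat relative levels and likeness, a prior count of 2 was added before taking log2 CPM. Shares, ratios and relative levels were tested with two-sided exact permutation tests (scipy 1.17.1). The fit was tested on simulated data. The study used DESeq2 with unadjusted p-values. Alternatives were DESeq2 1.42.0, other scalings and filters, limma 3.58.1 on log2 FPKM with pseudocounts of 1 or 0.1, a muscle covariate and leaving out each rat.

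Named genes are the 7 coat genes, up to 4 genes per list with the smallest p past the threshold for NE/Ovx against Sham (or 2 where none passed), the 3 genes nearest in pattern to each called coat gene, and neighbours. Further genes of the droplet, regulator, hormone, brown fat and macrophage lists were named after their values were seen. The coat genes and lists were chosen with earlier results of these data known. RefSeq sequences on GRCr8 were used for the stretches before start sites, and the GRCr8 gene table for neighbours only.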

Additional observations from a re-analysis of the deposited data

How the results depend on the processing

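For NE/Ovx against Sham, 1 of 7 coat genes was called, and 4 under DESeq2 on all libraries or the study's thresholds, 3 under DESeq2 on the 2 groups or without a filter on low counts, and 2 under library totals or limma on log2(FPKM + 1), with or without a minimum FPKM. Leaving out 1 rat gave 1 to 2. For RE/Ovx against NE/Ovx, 0 were called in every fit and 1 at the study's thresholds, and leaving out 1 rat gave 0. For RE/Ovx against Sham, 4 were called, 2 (Plin1 and Cidec) with edgeR on the 2 groups, and 1 to 4 when 1 rat was left out. Over all genes, DESeq2 on all libraries called 665 higher and 349 lower for NE/Ovx against Sham, 4 and 1 for RE/Ovx against NE/Ovx, and 1169 and 795 for RE/Ovx against Sham. The cause of these differences was not tested. The study's thresholds were applied to p-values of the edgeR fit.

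Plin1 kept its direction in every alternative run and its call in both comparisons with Sham. For RE/Ovx against NE/Ovx the log2 fold change of Plin4 turned to 0.007 under library totals, 0.001 under limma with a pseudocount of 1, with or without a minimum FPKM, and 0.65 with the muscle covariate. With that covariate Plin5 turned to 0.13, and to 0.29 for RE/Ovx against Sham. Leaving out 1 rat gave -0.38 to 0.68 for Plin5 in NE/Ovx against Sham, -0.101 to 0.024 for Plin3, -0.15 to 0.17 for Plin4 and -0.986 to 0.074 for Plin5 in RE/Ovx against NE/Ovx, and -0.22 to 0.01 for Plin2 in RE/Ovx against Sham. None of these passed the threshold. With counts in place of FPKM, which weights long genes, the share of Plin1 differed by 35.0 points for RE/Ovx against Sham, that of Plin4 by 5.86 for NE/Ovx against Sham and by -3.02 for RE/Ovx against NE/Ovx, and that of Cidea by 0.548 and 0.807 in the comparisons with Sham. Without 1 rat the share of Plin1 differed by 24.0 to 29.9, 8.77 to 14.6 and 37.1 to 41.0 points, and that of Plin2 by -23.6 to -18.0, -10.9 to -5.29 and -29.8 to -27.9 points, in the order of the comparisons above. No paired analysis was possible because the groups share only 1 rat number, 8, which the labels do not tie to a shared litter or day. Low counts limit what can be said of Plin5 and Cidea.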
